A study of Mus musculus with 8 samples.

Results

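Macrophages are the most studied myeloid cells of solid tumors, and 10 genes that are widely used to describe them were followed here in Lewis lung carcinoma (LLC) tumors. The genes were Adgre1 and Csf1r (macrophage identity), Csf1 (the growth factor), and Mrc1, Arg1, Nos2, Cd163, Trem2, Spp1 and Chil3 (polarization or functional state). They were chosen by symbol, and each symbol matched 1 of the 55487 identifiers in the count table. LLC is a mouse lung cancer line, and the tumors grew under the skin of C57BL/6J mice, which are syngeneic with it, and were taken at day 12. There were 8 tumors, 4 of wild-type LLC cells and 4 of LLC cells with an Ago2 knock-out (ΔAgo2). The study engrafted females bought as young adults, and its ΔAgo2 cells were 1 clone obtained with a lentiviral CRISPR vector, so that clone and genotype cannot be told apart. Only the cancer cells were edited. The hosts of both groups were not, so tumor macrophages kept Ago2 in either group. Each value is a bulk measurement of cancer and host cells together, in which fewer macrophages and less RNA per macrophage cannot be told apart.

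Total counts ran from 7903288 to 268564145 per tumor, and wild-type tumor 4 was the shallowest. Ago2 itself measured 130 to 195 CPM (counts scaled to a common library total, with TMM factors) in wild-type tumors and 118 to 355 CPM in ΔAgo2 tumors, so its transcript does not check the labels. Between the groups 560 of 16061 genes tested had an adjusted p under 0.05, or 3.49%, with 1.36% higher and 2.12% lower in ΔAgo2 tumors. A pair of libraries stood apart in their cell type markers. ΔAgo2 tumor 1 had the highest summed level of 17 macrophage identity genes, 4614 CPM against 2077 to 2763 CPM in the 7 others. It also had the highest sum of T and NK cell markers, 65.6 CPM against 14.9 to 33.8 CPM. Wild-type tumor 3 had 4087 CPM of skeletal muscle markers, against 55.8 to 554 CPM in the others, and the lowest sum of keratinocyte markers, 15.6 CPM against 181 to 967 CPM. Summed markers of other cell types were compared between the groups as well. The fibroblast sum was 4940 to 7275 CPM in wild-type and 2323 to 4677 CPM in ΔAgo2 tumors, without overlap. Col3a1 was its largest part, at 3762 to 5751 and 1407 to 3701 CPM. Of its 10 genes 7 were negative and 3 positive (Pdgfra, Postn and Dcn), and 1 passed (Fap, lower). Without ΔAgo2 tumor 1, where 11% of all genes passed, 1 passed as higher (Pdgfra) and 3 as lower. The muscle sum was 290 to 4087 and 55.8 to 238 CPM, also without overlap, with 10 of 10 genes negative and 0 past the threshold. Keratinocyte sums were 15.6 to 624 CPM in wild-type and 507 to 967 CPM in ΔAgo2 tumors, with overlap. Keratinocyte genes were positive in 10 of 10, beside 52.5% of all genes, and 1 passed (Krt10, higher). T and NK cell sums were 14.9 to 33.8 and 25.6 to 65.6 CPM, with overlap. All 12 of their genes were positive and 0 passed. Their median log2 fold change was 0.47, and -0.32 without ΔAgo2 tumor 1. Gzmb, Prf1 and Ncr1 were higher without overlap, 3 of 12, where 16.4% of all genes did not overlap. Without ΔAgo2 tumor 1 these were at 0.93, 0.52 and 0.89, while Cd3e and Cd3d were at -0.92 and -1.05. Neutrophil sums were 60.9 to 120 CPM in wild-type and 65.2 to 107 CPM in ΔAgo2 tumors. Dendritic cell sums were 543 to 934 and 510 to 808 CPM, and pan-leukocyte sums 818 to 1199 and 743 to 1343 CPM. All of these overlapped. Fscn1 made most of the dendritic cell sum, at 521 to 909 CPM in wild-type and 497 to 784 CPM in ΔAgo2 tumors. Of its 10 genes 8 were negative and 2 positive, and 0 passed. Mmp9 was the largest part of the neutrophil sum, at 26.5 to 105 and 23.9 to 51.5 CPM. Of 12 neutrophil genes 6 were tested, with 3 positive, 3 negative and 0 past the threshold. Within the pan-leukocyte sum Coro1a alone ran from 129 to 619 CPM in wild-type and from 124 to 341 CPM in ΔAgo2 tumors. Of the 8 pan-leukocyte genes 5 were positive and 3 negative, and 0 passed. None of the neutrophil, dendritic cell and pan-leukocyte sums shows how those cells compare.

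Macrophages depend on signals through the CSF1 receptor, which Csf1r encodes and which binds CSF1, made by stromal and tumor cells among others. Adgre1 encodes F4/80, the surface protein long used to recognise mouse macrophages. Cytokines such as IL-4 raise Mrc1, Arg1 and Chil3 in macrophages, whereas bacterial products and IFN-γ raise Nos2. ARG1 and NOS2 compete for arginine, the former making ornithine and the latter nitric oxide. TREM2 is a lipid-sensing receptor, and SPP1 (osteopontin) is a secreted ligand of integrins and CD44. Arg1, Nos2, Csf1 and Spp1 are also made by cells other than macrophages, cancer cells included.

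All 8 defining macrophage markers examined (Adgre1, Csf1r, Cd68, Fcgr1, Mertk, C1qa, C1qb and C1qc) were detected in every tumor. Every one of the 10 genes passed the count filter. None of them passed the threshold between wild-type and ΔAgo2 tumors, where 3.49% of all genes tested did. By edgeR's quasi-likelihood test 0 had an adjusted p under 0.05 and 1 had an unadjusted p under 0.05, and by DESeq2 these numbers were 0 and 3. The log2 fold change (ΔAgo2 over wild-type) was positive for 5 genes and negative for 5, with a median of -0.03, beside a median of 0.04 over all genes tested. In 0 of the 10 did the 4 values of one group lie apart from the 4 of the other, as they did in 16.4% of genes tested. A count of 0 does not show equal levels, and the intervals below give the differences that 4 tumors against 4 leave possible.

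**Figure D1:**
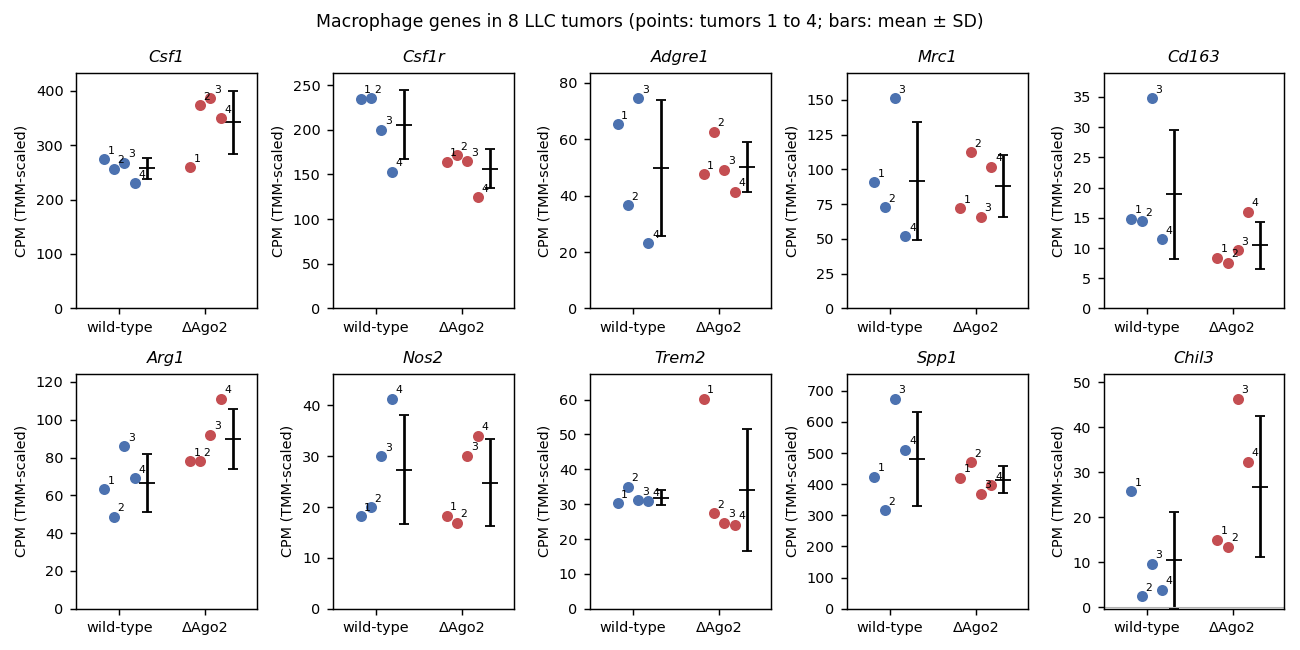
Level of each gene in each tumor, in TMM-scaled CPM (vertical axis, from 0 or just below), for 4 wild-type (blue) and 4 ΔAgo2 (red) tumors; numbers are tumor numbers, and bars beside the points are mean ± SD. The groups overlapped for all 10 genes, and single tumors stood high for Cd163 (wild-type tumor 3, 34.7 CPM) and Trem2 (ΔAgo2 tumor 1, 60.2 CPM).

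The growth factor and its receptor leaned in opposite directions. Csf1 (ENSMUSG00000014599.10, chromosome 3, 107741048 to 107760469 of GRCm38) measured 275, 257, 268 and 229 CPM in the wild-type group (tumors 1 to 4, in this order throughout) and 259, 373, 386 and 349 CPM in the ΔAgo2 group. ΔAgo2 tumors 2 to 4 lay above every wild-type tumor, and ΔAgo2 tumor 1 lay among them. The means were 257 ± 19.8 and 342 ± 57.3 CPM (SD, n = 4), a log2 fold change of 0.41 (SE 0.19, 95% interval -0.01 to 0.83, adjusted p = 0.199).

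Csf1r (ENSMUSG00000024621.16, chromosome 18, 61100598 to 61132149) measured 235, 235, 200.1 and 153 CPM in the wild-type group and 164, 172, 165 and 124 CPM in ΔAgo2 tumors. Wild-type tumor 4 was the 1 wild-type value below the higher ΔAgo2 tumors. The log2 fold change was -0.40 (SE 0.21, 95% interval -0.85 to 0.06, adjusted p = 0.236). An exon of Csf1r overlaps one of Hmgxb3 on the other strand, and the strand setting of the counting is not given in the sources used here, so part of its count is uncertain. Both genes passed under limma voom with quality weights, Csf1 at 0.43 (adjusted p = 0.0254) and Csf1r at -0.63 (adjusted p = 0.0217), a setting that called 27.9% of all genes. The ratio of Csf1r to Csf1 on the TPM scale, which divides by gene length, was 0.782, 0.838, 0.684 and 0.61 in wild-type tumors and 0.581, 0.421, 0.391 and 0.326 in ΔAgo2 tumors. The groups did not overlap in this ratio, which was 1 of 7 such among the 45 ratios between the 10 genes, where 16.4% of single genes did not overlap. It was picked after its values were seen and is given without a test.

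Adgre1 (ENSMUSG00000004730.15, chromosome 17, 57358691 to 57483527) had nearly the same mean in both groups, 49.9 ± 24.1 CPM in wild-type and 50.2 ± 8.91 CPM in ΔAgo2 tumors (SD, n = 4). Wild-type tumors held 65.3, 36.6, 74.4 and 23.1 CPM, and ΔAgo2 tumors held 47.7, 62.6, 49.1 and 41.4 CPM. Its log2 fold change was 0.00 (SE 0.33, adjusted p = 0.995), and the 95% interval of -0.73 to 0.73 leaves room for differences in either direction. Without wild-type tumor 4 it was -0.22 and without wild-type tumor 3 it was 0.26. ΔAgo2 tumor 1, highest in the summed identity genes, was not high in Adgre1 or Csf1r.

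Mrc1 and Cd163 encode scavenger receptors, for mannosylated glycoproteins and for haptoglobin-haemoglobin complexes. Mrc1 (ENSMUSG00000026712.3, chromosome 2, 14229392 to 14332057) measured 90.8, 72.8, 151.1 and 51.9 CPM in the wild-type group and 72.3, 112, 66.0 and 102 CPM in ΔAgo2 tumors. The values of the groups were mixed, with a log2 fold change of -0.06 (SE 0.32, 95% interval -0.76 to 0.64, adjusted p = 0.921). It was 0.29 without wild-type tumor 3, -0.25 without wild-type tumor 4 and -0.54 after removal of each library's trend on GC content.

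Cd163 (ENSMUSG00000008845.9, chromosome 6, 124304656 to 124330527) had the lowest unadjusted p of the 10. It measured 14.8, 14.4, 34.7 and 11.5 CPM in the wild-type group and 8.39, 7.60, 9.64 and 16.04 CPM in ΔAgo2 tumors. ΔAgo2 tumors 1 to 3 were below every wild-type tumor, and ΔAgo2 tumor 4 was above 3 of them. The log2 fold change was -0.86 (SE 0.38, 95% interval -1.70 to -0.03), and the adjusted p of 0.176 did not pass. Wild-type tumor 3, with its muscle markers, also held the highest Mrc1, Adgre1 and Spp1. Without it the log2 fold change of Cd163 was -0.38. The part of the muscle tissue in these values was not tested.

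The arginine enzymes did not separate the groups either. Arg1 (ENSMUSG00000019987.9, chromosome 10, 24915221 to 24927484) measured 63.3, 48.8, 85.9 and 68.9 CPM in the wild-type group and 77.9, 78.0, 92.1 and 111 CPM in ΔAgo2 tumors. Wild-type tumor 3 was the only one above any ΔAgo2 tumor. The log2 fold change was 0.43 (SE 0.22, 95% interval -0.05 to 0.91, adjusted p = 0.232), and it was 0.58 (adjusted p = 0.0344) under limma voom.

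Nos2 (ENSMUSG00000020826.8, chromosome 11, 78920787 to 78960254) measured 18.2, 19.9, 30.0 and 41.3 CPM in the wild-type group and 18.3, 16.9, 30.1 and 34.0 CPM in ΔAgo2 tumors. Each group held a pair of tumors of at most 19.9 CPM and a pair of at least 30.0 CPM, and the log2 fold change was -0.13 (SE 0.32, 95% interval -0.85 to 0.58, adjusted p = 0.815). Without wild-type tumor 4 it was 0.13. Arg1 exceeded Nos2 per length in all 8 tumors. The TPM ratio was 6.91, 4.85, 5.67 and 3.31 in wild-type tumors and 8.43, 9.16, 6.07 and 6.47 in ΔAgo2 tumors, and the groups overlapped through wild-type tumor 1.

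Trem2 (ENSMUSG00000023992.14, chromosome 17, 48346401 to 48354147) was the steadiest of the 10 in wild-type tumors, at 30.3, 35.0, 31.2 and 30.8 CPM. In ΔAgo2 tumors it was 60.2, 27.4, 24.7 and 24.1 CPM. ΔAgo2 tumor 1 was above and the 3 other ΔAgo2 tumors were below every wild-type tumor. The log2 fold change was 0.10 (SE 0.30, 95% interval -0.56 to 0.76, adjusted p = 0.853) with that tumor and -0.33 without it, so 1 library set the direction. The same library held the highest summed identity genes, and their part in its Trem2 level was not tested.

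Spp1 (ENSMUSG00000029304.14, chromosome 5, 104435118 to 104441050) had 424, 317, 675 and 511 CPM in wild-type tumors and 421, 471, 369 and 396 CPM in ΔAgo2 tumors. The ΔAgo2 values lay within the wild-type range, and the log2 fold change was -0.22 (SE 0.24, 95% interval -0.75 to 0.32, adjusted p = 0.582). It was -0.01 without wild-type tumor 3 and -0.77 after the GC correction, and passed in neither.

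Chil3 (ENSMUSG00000040809.10, chromosome 3, 106147554 to 106167564), a secreted chitinase-like protein also called Ym1, differed most between tumors. Wild-type tumors held 25.8, 2.43, 9.65 and 3.87 CPM, and ΔAgo2 tumors held 14.9, 13.4, 46.4 and 32.3 CPM. Except for wild-type tumor 1, wild-type values lay below every ΔAgo2 value. The log2 fold change of 1.33 (SE 0.66) had a 95% interval of -0.13 to 2.79 and an adjusted p of 0.222. It was 2.31 without wild-type tumor 1 (adjusted p = 0.0551) and 0.93 without ΔAgo2 tumor 3. Within-group SD on the log2 scale was 1.23 for Chil3, against 0.20 for Csf1 and a median of 0.37 over 9132 genes of 10 to 1000 CPM. Its close relatives Chil4, Chil5 and Chil6 were below 0.05 CPM in every tumor. Chit1, another chitinase gene and the lowest in p among the relatives tested, was at 1.45 (adjusted p = 0.215).

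**Figure D2:**
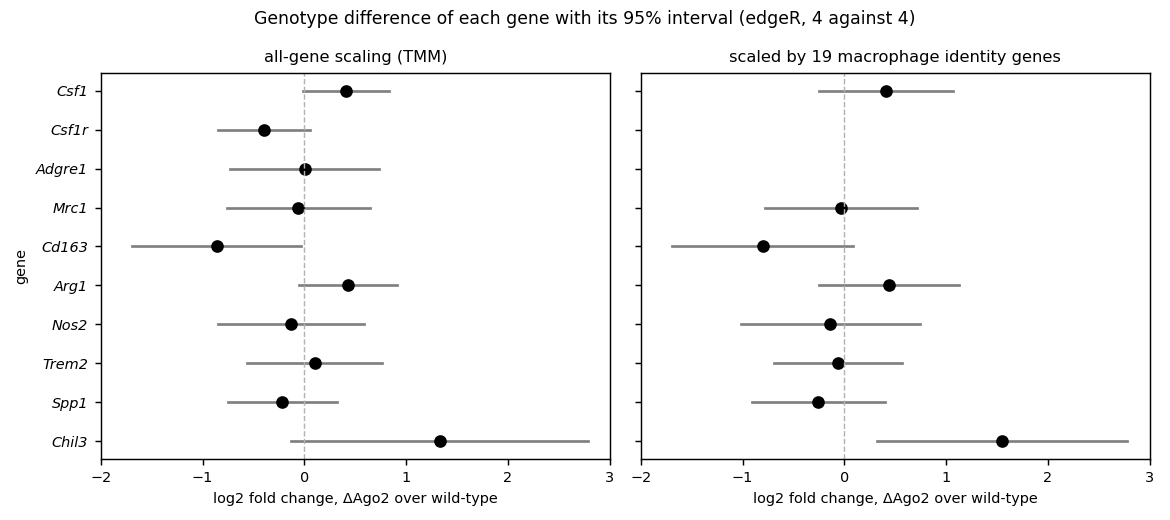
Log2 fold change, ΔAgo2 over wild-type (horizontal axis), of each gene with its 95% interval from edgeR, with libraries scaled over all genes (left) or by 19 macrophage identity genes (right, where Adgre1 and Csf1r set the scale and are left out). On the left every interval but that of Cd163 holds 0, and on the right every interval but that of Chil3 does.

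Identity and polarization genes were then compared with each other, by scaling each library on 19 macrophage identity genes (Adgre1, Csf1r and 17 others). This asks whether a gene changed by another factor than those genes did. In this fit 2.53% of all genes passed, and 0 of the 7 polarization genes did, with 1 at an unadjusted p under 0.05. That gene was Chil3, with a log2 fold change of 1.55 relative to the identity genes (SE 0.58, 95% interval 0.32 to 2.78, adjusted p = 0.136). It passed only without wild-type tumor 1 among the fits that left out 1 library, at 2.34 (adjusted p = 0.0286). Cd163 was at -0.80 (adjusted p = 0.255) and Arg1 at 0.44 (adjusted p = 0.421). Relative values of Mrc1, Nos2, Trem2 and Spp1 were -0.03, -0.14, -0.06 and -0.25. The mean log2 CPM of the identity genes themselves was 6.33 ± 0.23 in wild-type and 6.38 ± 0.34 in ΔAgo2 tumors (SD, n = 4).

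**Figure D3:**
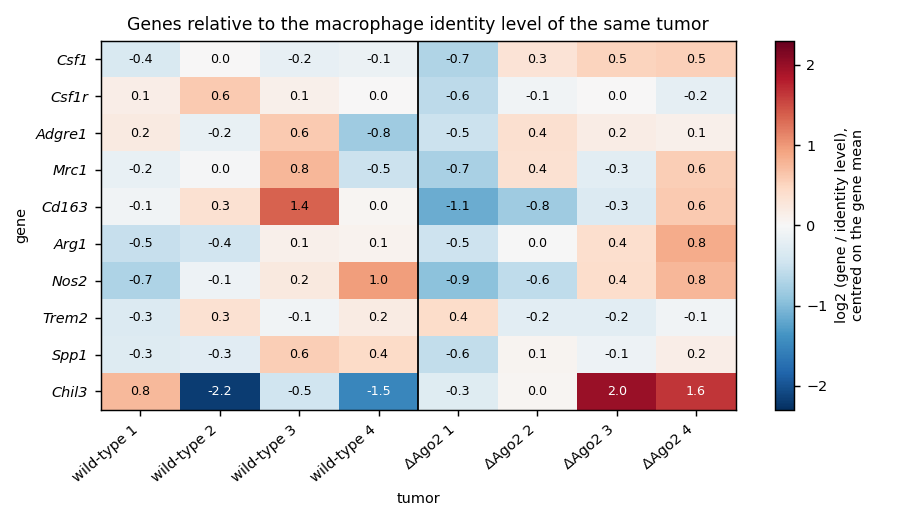
Heat map of each gene (rows) in each tumor (columns) as log2 of its level over the macrophage identity level of the same tumor, centred on the gene's mean; red is above and blue below that mean. Chil3 spans the widest range, from low in wild-type tumors 2 and 4 to high in ΔAgo2 tumors 3 and 4, and ΔAgo2 tumor 1 is below the mean for every gene but Trem2.

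Compared per length, on the TPM scale, the 10 genes spanned 2 orders of magnitude. Spp1 was highest at 777 TPM (mean over 8 tumors), followed by Csf1 at 168, Arg1 at 103, Csf1r at 90.0, Adgre1 at 45.6, Mrc1 at 41.8, Chil3 at 34.8, Trem2 at 18.5, Nos2 at 16.7 and Cd163 at 7.73 TPM. Spp1 exceeded Csf1, Csf1 exceeded Arg1, Csf1r exceeded Adgre1 and Nos2 exceeded Cd163 in 8 of 8 tumors. Arg1 exceeded Csf1r in 6. Neighbours in the order from Adgre1 to Nos2 are not ranked by these data, since each exceeded the next in 4 or 5 of 8 tumors. Between the ends of that stretch, the ratio of Adgre1 to Nos2 was below 1 only in wild-type tumor 4 (0.761). Trem2 is understated in that order, because its union of exons (4946 bases) is 4.55 times as long as its principal transcript, and by principal lengths it ranked 5, below Csf1r.

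The wider programs of these genes were described by lists. The 195 other listed genes tested held 10 that passed (5.13%, beside 3.49% of all genes), with a median log2 fold change of 0.08. Among 17 further macrophage identity genes 0 passed, 8 were positive and 9 negative, and the median was -0.02. The one with the smallest p was Mertk, a receptor for the uptake of dying cells, at -1.08 (adjusted p = 0.0625). It measured 17.8, 25.5, 18.7 and 18.2 CPM in wild-type and 5.52, 13.6, 8.84 and 9.80 CPM in ΔAgo2 tumors, without overlap. Without ΔAgo2 tumor 1, where 11% of all genes passed, Cd68, Mertk and C1qa of this list passed as lower in ΔAgo2 tumors. Fcgr1 and Ctss leaned the other way, at 0.77 and 0.87 with all libraries and 0.54 and 0.615 without that tumor. Neither of them passed in either fit.

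Around Csf1r and Csf1, 1 of 10 genes of related growth factors and receptors passed, with 2 positive, 8 negative and a median of -0.44. Csf3, the granulocyte growth factor, fell from 2.21, 1.72, 6.45 and 13.9 CPM in wild-type tumors to 0.431, 0.597, 0.746 and 0.767 CPM in ΔAgo2 tumors, by 3.21 on the log2 scale (SE 0.64, adjusted p = 0.0272). Stab1, a scavenger receptor of resident-like macrophages that endothelial cells also make, fell by 1.18 (SE 0.25, adjusted p = 0.0333) and was the 1 of 11 in its list to pass. It went from 152.05, 298, 228 and 199 CPM to 81.5, 127, 98.7 and 80.6 CPM, and after the GC correction it was at -0.75 and did not pass (adjusted p = 0.134). The summed fibroblast and muscle markers were lower in the same tumors, though 3 of 10 fibroblast genes were positive. The part of these tissues in the falls of Stab1, Csf3 and the other genes below was not tested. In the monocyte list 1 of 11 passed, Ace, the angiotensin-converting enzyme, which endothelial cells also make, at -0.97 (adjusted p = 0.0299).

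No gene passed in either of the polarization lists. Of 16 further IL-4 response genes 0 passed, with 7 positive and a median of -0.11, which was -0.40 without ΔAgo2 tumor 1 and 0.06 without wild-type tumor 3. Il4ra, the IL-4 receptor chain, was nearest, at -0.76 (adjusted p = 0.0516), and its groups did not overlap. Of 18 further genes of the response to LPS and IFN-γ 0 passed, with 14 positive and a median of 0.34, which was 0.11 without ΔAgo2 tumor 1 and -0.07 under limma voom. ΔAgo2 tumor 1 held the highest sum of this list, 454 CPM, where the rest of its group had 315 to 328 CPM.

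In the arginine list 1 of 11 passed, with 5 positive, 6 negative and a median of -0.27. By edgeR's test 7 had an unadjusted p under 0.05, beside 26.7% of all genes. Without overlap, 2 of the 11 were higher and 3 lower, where 16.4% of all genes did not overlap. DESeq2 called 3 higher and 3 lower, beside 14.5% of all genes. Ass1, which makes argininosuccinate for the resynthesis of arginine, fell by 1.25 (SE 0.27, adjusted p = 0.0368), from 56.5, 73.8, 48.3 and 101 CPM to 40.6, 23.3, 27.4 and 26.1 CPM. In the TREM2 and lipid list 12 of 17 genes were positive, with a median of 0.19, which was -0.03 without ΔAgo2 tumor 1. The 1 that passed went the other way, the glycoprotein gene Gpnmb, at -0.91 (adjusted p = 0.0388), from 45.8, 49.7, 32.5 and 49.2 CPM to 20.2, 25.04, 24.1 and 24.6 CPM. Of 10 hypoxia genes 0 passed, and Car9, with the smallest p, was at 0.69 (adjusted p = 0.211).

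Of 7 receptor genes for osteopontin 3 were higher in ΔAgo2 tumors, beside 1.36% of all genes, and the median was 0.88. After the GC correction 2 passed and the median was 0.33, with Cd44 at 0.43 (adjusted p = 0.147). Itgav, the integrin αv chain, rose from 39.0, 35.8, 62.4 and 31.7 CPM to 129, 222, 90.9 and 187 CPM (log2 fold change 1.89, SE 0.32, adjusted p = 0.0124). Its partner chain Itgb3 rose by 0.95 (adjusted p = 0.0455) and Cd44 by 0.88 (adjusted p = 0.0492). Cancer cells and stroma express these receptors too. None of these calls held in all 8 fits that each left out 1 library, though each gene kept its direction. Itgav passed in 6 of them, Csf3 in 5, Stab1 in 4, Ace and Ass1 in 3, and Cd44, Gpnmb and Itgb3 in 2. The share of all genes that passed ran from 0.541% (without ΔAgo2 tumor 4) to 11% (without ΔAgo2 tumor 1), beside 3.49% with every library.

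**Figure D4:**
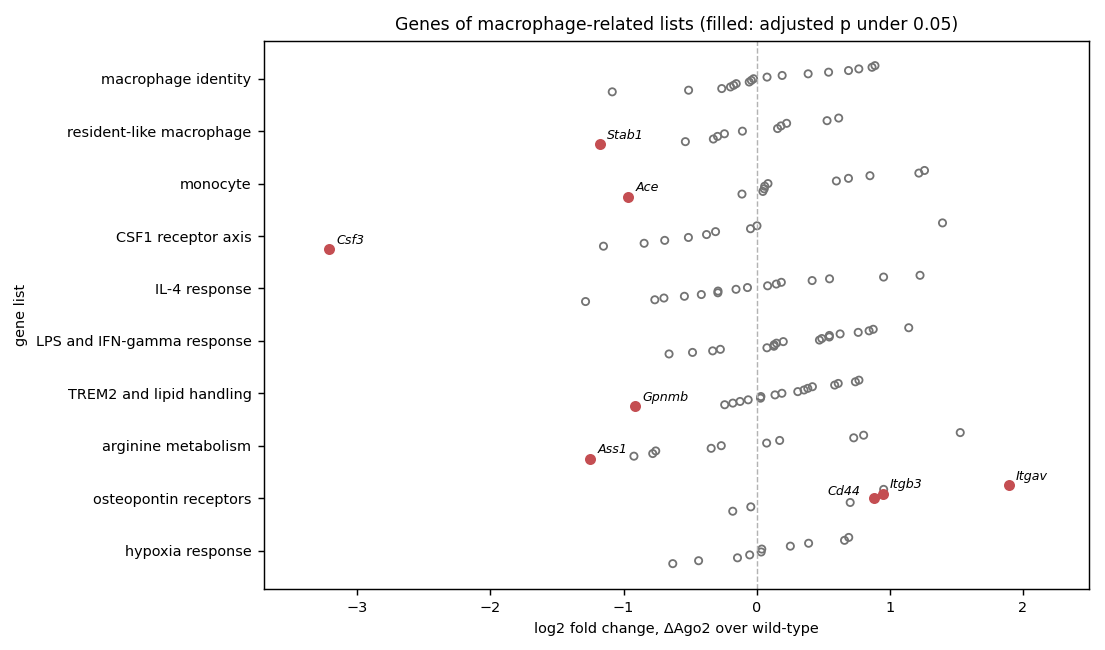
Log2 fold change, ΔAgo2 over wild-type (horizontal axis), of each gene tested in 10 macrophage-related lists (rows); filled red points had an adjusted p under 0.05 and are named. The 3 filled points of the osteopontin receptors lie above 0, and Csf3, Stab1, Ass1, Ace and Gpnmb lie below it.

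The genes most like 3 of the 10 across tumors were sought among 9246 genes of at least 10 CPM, by the root mean square difference of centred log2 CPM over 8 tumors. For Adgre1 they were Ccdc91 (0.16), Rab32 (0.17) and Rassf4 (0.18), where the median gene differed by 0.61. For Arg1 they were Bag5 (0.14), Dpt (0.14) and Vegfc (0.15), with a median of 0.50. Nos2 was closest to Vegfa (0.18), Bhlhe40 (0.21) and Dusp1 (0.23), with a median of 0.61. All of these points share the same libraries and their depth.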

How the data were processed

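RNA from 8 LLC tumors was sequenced as stranded mRNA libraries, and groups were taken from the sample titles. The authors deposited raw counts per gene, not normalized, and TPM, in which counts are divided by gene length and scaled within each library. The study describes alignment to mm10 and counting with featureCounts for cultured cells, and the submitters' processing notes for the tumors name STAR. The strand setting was not given in the sources used here.

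Identifiers were matched to GENCODE M21 on GRCm38 (99.29% of 55487). Genes were filtered with filterByExpr, scaled by TMM and compared by the quasi-likelihood test of edgeR 4.0.16 in R 4.3.3, on genotype alone, with p-values adjusted over 16061 genes (Benjamini-Hochberg). Every adjusted p is from this test unless another is named. Log2 CPM used a prior count of 2. A second fit scaled libraries by 19 macrophage identity genes. DESeq2 1.42.0, limma 3.58.1 (voom with quality weights, and log2(TPM + 1) or log2(TPM + 0.1), with 0.5 TPM in 4 libraries or no filter), other scalings and filters, GC and length corrections, equal depth, a replicate block and leaving out each library were alternatives. The fits were tested on simulated data.

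Every one of the 10 genes was reported. From each list the genes past the threshold were named, up to 4, or else the gene with the smallest p, and lists of other cell types were given by their sums. For 1 list the gene so chosen is not reported here. The genes and lists were chosen with earlier results of these data known. Depth ran from 7903288 to 268564145 counts, so low genes are least precise in wild-type tumor 4. Replicates were separate tumors, and no pair of libraries agreed within sampling noise.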

Additional observations from a re-analysis of the deposited data

Results flagged for a closer look

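A gap test asked in 56 groups of 4 tumors whether 1 extreme value was farther from the other 3 than the test's limit. It picked 8, where about 2.8 are due by chance. Csf1r was low in ΔAgo2 tumor 4, at 124 CPM against 164 to 172 CPM. Cd163 was high in wild-type tumor 3, at 34.7 CPM against 11.5 to 14.8 CPM, and the summed skeletal muscle markers of that tumor were 4087 CPM against 290 to 554 CPM. The other 5 were ΔAgo2 tumor 1. It held Trem2 at 60.2 CPM against 24.1 to 27.4 CPM, and summed levels of 8441 CPM for the TREM2 and lipid list against 5367 to 5788 CPM, 454 CPM for the LPS and IFN-γ list against 315 to 328 CPM, 1461 CPM for the arginine list against 1022 to 1057 CPM, and 65.6 CPM for T and NK cell markers against 25.6 to 30.6 CPM. Their part in the Trem2 level was not tested.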

How the results depend on the processing

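Of the 10 genes, 0 passed under every alternative other than limma voom with quality weights, where 3 did (Csf1, Csf1r and Arg1). Leaving out 1 library kept that count at 0, and the count relative to identity genes was 0 to 1, with Chil3 called without wild-type tumor 1. The 10 called among the other listed genes became 30 with DESeq2 (where 14.5% of all genes passed) and 47 with voom (27.9%). That number was 21 with no count filter (3.24%) and 19 with the length correction (7.42%). Limma called 0 on log2(TPM + 1) (0.941%) or log2(TPM + 0.1) (0.915%), and 2 on log2(TPM + 1) unfiltered (0.462%). Without both wild-type tumor 3 and ΔAgo2 tumor 1, a setting added after seeing the data, the number was 46 (25.1%). Leaving out 1 library gave 0 to 26, the lowest without ΔAgo2 tumor 4 (0.541% of all genes) and the highest without ΔAgo2 tumor 1 (11%). It was 1 without wild-type tumor 2 (0.87%) or ΔAgo2 tumor 3 (0.902%). It was 2 without wild-type tumor 4 (1.61%) or ΔAgo2 tumor 2 (1.02%). The same numbers did not pair the tumors (correlations of same-numbered tumors -0.24, 0.10, -0.04 and -0.29), and no tumor correlated best with its own number. The replicate block called 70 of all genes (0.436%) and 0 of the listed ones. With the GC correction added it called 1.94% of all genes and 6 of the listed ones.

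Directions turned for genes with small differences, none of them called in either setting. Adgre1 went to -0.008 with DESeq2 size factors, -0.065 with the upper quartile, -0.006 with DESeq2, -0.395 with voom, -0.208 with the GC correction, -0.149 with the replicate block and GC correction, and -0.038 at equal depth. Mrc1 went to 0.023 with the replicate block, 0.227 with log2(TPM + 1), filtered or not, 0.235 with log2(TPM + 0.1) and 0.352 without both libraries. Nos2 went to 0.445 with voom, 0.047 with the GC correction, 0.051 with the replicate block added to it, 0.090 with log2(TPM + 1), filtered or not, 0.091 with log2(TPM + 0.1) and 0.025 without both libraries. Trem2 went to -0.303 with voom, -0.020 with the replicate block, -0.046 with the block and GC correction, and -0.359 without both libraries. Spp1 went to 0.048 in all 3 TPM fits. Scaled by Adgre1 and Csf1r alone, the relative values of Mrc1 and Trem2 were 0.159 and 0.163.

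Leaving out 1 library moved Adgre1 from -0.221 (without wild-type tumor 4) to 0.261 (without wild-type tumor 3), Mrc1 from -0.245 to 0.294 (the same tumors), Nos2 from -0.310 (without ΔAgo2 tumor 4) to 0.133 (without wild-type tumor 4) and Trem2 from -0.334 (without ΔAgo2 tumor 1) to 0.253 (without ΔAgo2 tumor 4). Relative to identity genes Mrc1 ran from -0.241 to 0.285, Nos2 from -0.470 to 0.220 and Trem2 from -0.242 to 0.051. Except where the number of genes or libraries changed, the cause was not tested. With 4 tumors a group the intervals given above are wide, most of all for Chil3, and genes that did not pass are not shown to be equal.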
